A study of Rattus norvegicus with 2 samples.

Results

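The genes described here are the subunits of the oxidative phosphorylation machinery in cells cultured from the rat optic nerve. They were chosen by symbol: the 13 protein-coding genes of the mitochondrial genome (ND1 to ND6, ND4L, COX1 to COX3, CYTB, ATP6 and ATP8) and the nuclear genes whose symbols begin with Nduf (followed by a, b, c, s or v), Uqcr, Cox4 to Cox8 or Atp5, or are Sdha, Sdhb, Sdhc or Sdhd. This rule found 108 of the 25399 genes counted. It uses symbols and no measured value, but it was set with earlier results of these data known. Of the 95 nuclear genes, 85 encode subunits (36 of complex I, 4 of complex II, 9 of complex III, 21 of complex IV and 15 of complex V), 8 are the complex I assembly factors Ndufaf1 to Ndufaf8, 1 is the ATP synthase inhibitor Atp5if1 and 1 is a pseudogene, Cox6c-ps1.

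Optic nerve cultures of 2 genotypes were compared by single-cell RNA sequencing, from wild type (WT) rats, which the study's methods give as Sprague Dawley, and from Nuc1 rats, which carry a spontaneous insertion in Cryba1, the gene of the lens protein βA3/A1-crystallin. The labels give postnatal day 7 for both genotypes. The methods give younger pups for the astrocyte cultures and no age for the sequenced mixed cultures. Neither labels nor methods state how many animals were pooled. Each genotype is 1 library of a mixed culture, so a difference between WT and Nuc1 cannot be told apart from a difference between these 2 cultures or library preparations, and no test between genotypes was possible. Cryba1 itself had 0 UMIs in both libraries, which left the genotype labels unchecked.

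Oxidative phosphorylation uses 5 complexes of the inner mitochondrial membrane. Complexes I and II pass electrons from NADH and succinate to ubiquinone, complex III hands them to cytochrome c, complex IV reduces oxygen, and complex V, the ATP synthase, uses the proton gradient made by complexes I, III and IV. Complexes I, III, IV and V are assembled from subunits of both genomes and complex II from nuclear subunits alone, so the cell has to express both genomes to build the chain. Astrocytes are known for their glycolytic metabolism and also hold many mitochondria, and fibroblasts are the common companion cell of primary glial cultures.

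UMIs, or unique molecular identifiers, count captured transcript molecules. With at least 500 genes per cell and no limit on mitochondrial UMIs, the WT library held 2028 cells and 34411300 UMIs, with a median of 13881.5 per cell, and the Nuc1 library held 1879 cells and 35727039 UMIs, with a median of 16196, and the libraries shared 2 cell barcodes. Cells were grouped by markers: a cell belonged to a group when at least 3 markers of that group were detected and their summed level was at least 1000 UMIs per 1000000 nuclear UMIs, where nuclear UMIs are those of all genes outside the mitochondrial genome. Astrocyte-marker cells (Gfap, Aqp4, Mlc1, Fabp7, S100b) numbered 119 in WT and 355 in Nuc1, cilia-marker cells 14 and 116, oligodendrocyte-marker cells 43 and 4, myeloid-marker cells 12 and 1, and fibroblast-marker cells (Col1a1, Col1a2, Col3a1, Dcn, Lum) 1782 and 1254. Another 29 WT and 63 Nuc1 cells met the marker rule of more than 1 group and were set apart as mixed, and 29 WT and 86 Nuc1 cells met none. These groups are ranges of a marker level and not cell types. An astrocyte level between 500 and 2000, near the limit, was found in 50 WT and 40 Nuc1 cells. Of these, 1 WT and 6 Nuc1 cells were astrocyte-marker cells, while 30 WT cells were oligodendrocyte-marker and 17 Nuc1 cells fibroblast-marker cells. Cilia-marker cells also carried astrocyte markers, with medians of 7090 in WT and 10304 in Nuc1 against 19023 and 29907 in the astrocyte-marker cells, whereas the median level of the myeloid list was 0 in astrocyte-, cilia- and fibroblast-marker cells.

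Levels of the marker gene lists differed between the libraries inside the astrocyte-marker cells and stand beside every genotype comparison of those cells. The median level of the astrocyte list itself was 19023 in WT and 29907 in Nuc1, that of the oligodendrocyte lineage list 111 and 53, that of the neuron list 896 and 769, and that of the motile cilia list 44 and 57. The median level of the fibroblast list was 83 in WT and 0 in Nuc1, that of the dissociation list (immediate-early and heat shock genes) was 3242 in WT and 1470 in Nuc1, and the cell division list averaged 327 in WT and 96 in Nuc1. In fibroblast-marker cells the median of the dissociation list was 5142 in WT against 2821 in Nuc1, that of the fibroblast list 11948 against 7110, that of the neuron list 252 against 0 and that of the astrocyte list 0 against 49, and the cell division list averaged 396 against 230. Most of the neuron list was Stmn2. Its summed level was 982 in WT and 915 in Nuc1 astrocyte-marker cells, and 655 and 277 in fibroblast-marker cells. Each other gene of that list was at 16.7 or lower in these groups. The median log2 ratio of Nuc1 over WT of the nuclear subunits, given below as −0.24, was −0.20 without the cells at a fibroblast level of 200 or more, −0.26 without those at a dissociation level over 3000 and −0.25 without dividing cells, and that of the mitochondrial subunits, −0.35, became −0.35, −0.42 and −0.37. The part of these readings in the values of single genes was not tested.

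Transcripts of the 13 mitochondrial genes made up a larger share of all UMIs in glial cells than in fibroblast-marker cells, in both libraries. The share was 13.28% in WT and 11.58% in Nuc1 astrocyte-marker cells, 13.92% and 13.10% in cilia-marker cells, 12.76% in the WT oligodendrocyte-marker cells, 11.29% in the WT myeloid-marker cells, and 8.95% and 8.93% in fibroblast-marker cells. The 85 nuclear subunits followed another order. They took 3.45% of nuclear UMIs in WT and 2.89% in Nuc1 astrocyte-marker cells, 3.42% and 3.02% in cilia-marker cells, 3.87% in WT oligodendrocyte-marker cells, 3.0% in WT myeloid-marker cells, and 3.01% and 3.0% in fibroblast-marker cells. Thus WT astrocyte-marker cells exceeded fibroblast-marker cells in both sets, and Nuc1 astrocyte-marker cells in the mitochondrial set only. A few cells were dominated by mitochondrial transcripts: 24 cells of each library had over 50% mitochondrial UMIs, and the nuclear subunits were then a smaller part of what remained, 1.74% in 16 such WT fibroblast-marker cells and 1.25% in 10 such Nuc1 astrocyte-marker cells.

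**Figure D1:**
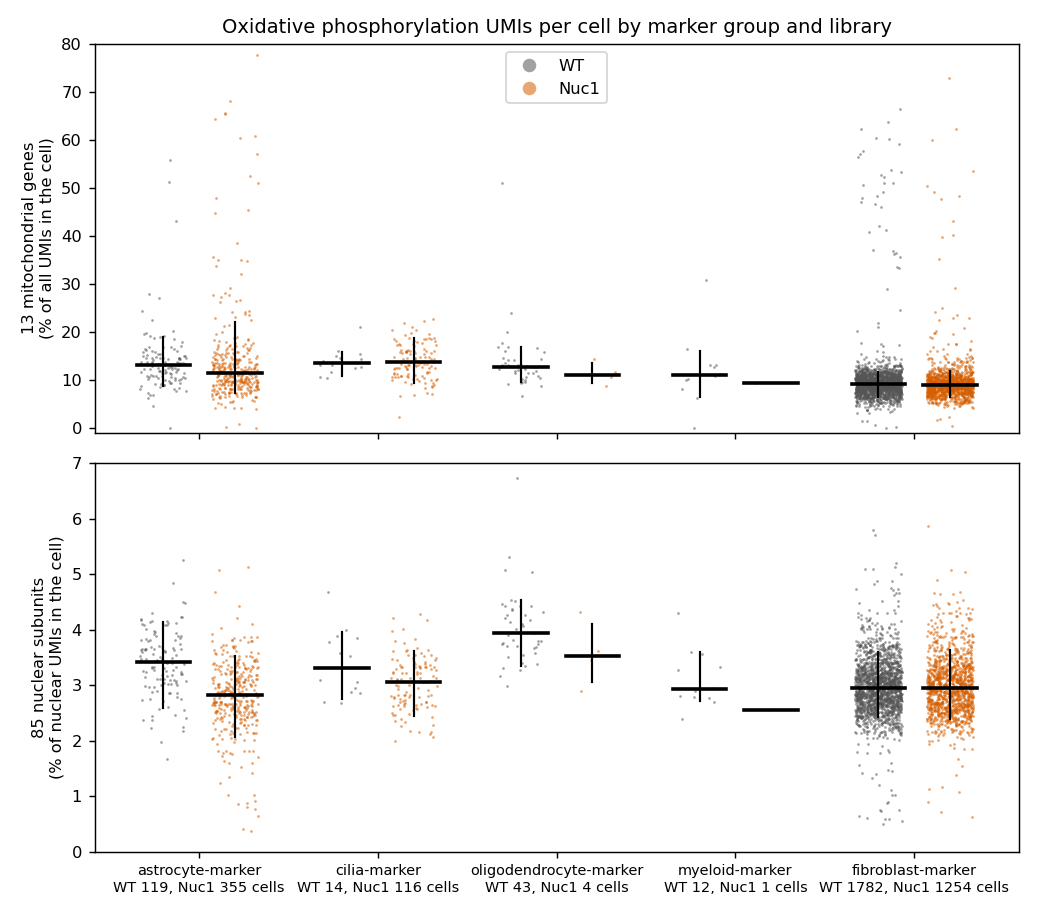
Every point is a cell, by marker group (x axis) and library (WT grey, Nuc1 orange). The upper panel gives the 13 mitochondrial genes as % of all UMIs in the cell and the lower panel the 85 nuclear subunits as % of nuclear UMIs in the cell; wide bars are medians over cells and thin bars the 10th to 90th percentiles. The median mitochondrial share is 13% in WT and 11.39% in Nuc1 astrocyte-marker cells and lies above that of the fibroblast-marker cells of the same library.

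Within the mitochondrial genome, COX1, COX2 and COX3 (the catalytic core of complex IV), CYTB (the cytochrome b of complex III) and ATP6 (the proton channel subunit a of complex V) gave most of the UMIs, and ND4L, ND5, ND6 and ATP8 few. In WT astrocyte-marker cells COX2 had 28550 UMIs per 1000000 nuclear UMIs, COX3 24102, ATP6 23274, CYTB 22610 and COX1 22287, while ND6 had 111 and ATP8 38. Since 1 tag is counted per captured molecule these levels are not scaled by length, and the ATP8 and ATP6 frames, like those of ND4L and ND4, overlap on the mitochondrial genome, so reads at their borders cannot be assigned with certainty. All 13 genes were higher in astrocyte- than in fibroblast-marker cells of the WT library, by a log2 ratio from 0.26 (COX3) to 1.04 (ND4 and ND4L), with a median of 0.69. In Nuc1 12 of 13 were higher, with a median of 0.56 and a largest ratio of 0.70, and ND6, the only protein gene on the other strand, went the other way, with 67.2 in astrocyte- and 85.6 in fibroblast-marker cells (log2 −0.35, 95% counting interval −0.50 to −0.20). Among cells with at most 10% mitochondrial UMIs, a limit that selects on this very measure, the medians were −0.032 in WT and 0.14 in Nuc1.

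The make-up of the mitochondrial UMIs differed between the libraries in every large group. ND2, a proton-pumping subunit of complex I, took 5.89% of mitochondrial UMIs in WT and 7.98% in Nuc1 astrocyte-marker cells, 7.78% and 8.89% in cilia-marker cells, and 7.60% and 10.60% in fibroblast-marker cells. ND2 was higher in Nuc1 in each of these groups. ND1, which sits at the ubiquinone site of complex I, moved the other way, from 5.60% in WT to 4.92% in Nuc1 astrocyte-marker cells and from 4.93% to 4.17% in fibroblast-marker cells. Per 1000000 nuclear UMIs, ND2 was 9020 in WT and 10448 in Nuc1 astrocyte-marker cells (log2 0.21, 0.19 to 0.23) and 7474 and 10386 in fibroblast-marker cells (0.47, 0.47 to 0.48). ND4L was 205 and 92.9 in astrocyte-marker cells (−1.14, −1.31 to −0.97), 200 and 89.1 in cilia-marker cells (−1.16, −1.57 to −0.75) and 99.4 and 57.0 in fibroblast-marker cells (−0.80, −0.90 to −0.70). These intervals, like all below, cover counting error in the 2 sums only and not the difference between 2 cultures of the same genotype. As shares of the same molecules, the ND2 and ND1 values do not depend on how the libraries were scaled.

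**Figure D2:**
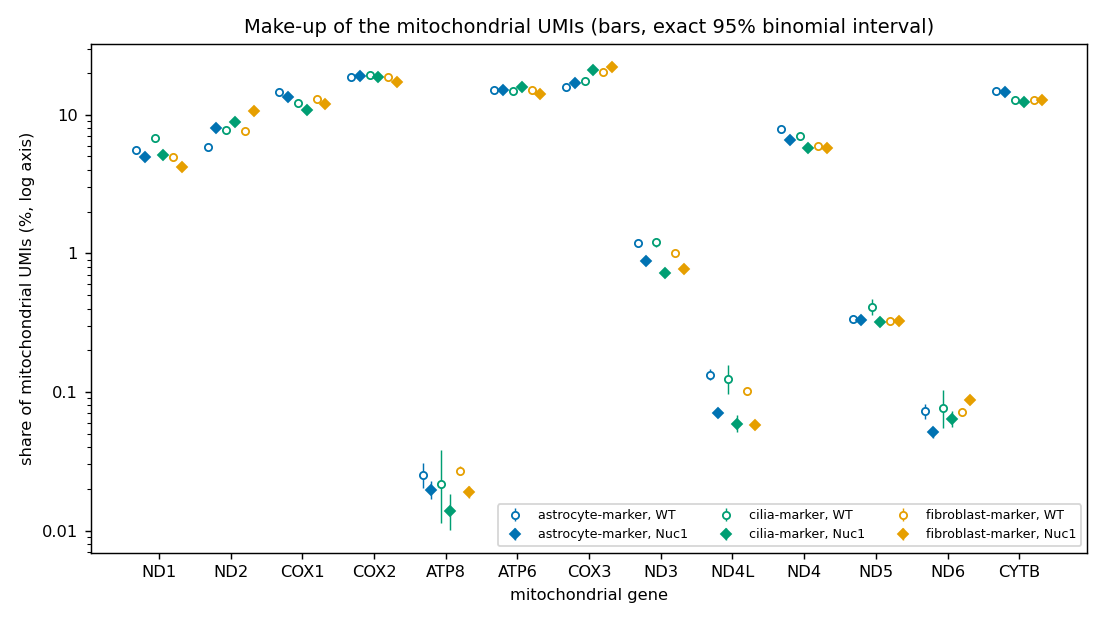
Share of each mitochondrial gene among all mitochondrial UMIs (%, log axis) in astrocyte-, cilia- and fibroblast-marker cells; open circles are WT, filled diamonds Nuc1, and bars exact 95% binomial intervals. The ND2 diamonds lie above the circles in all 3 groups (7.98% against 5.89% in astrocyte-marker cells), and the ND4L, ND3 and ND1 diamonds below them.

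All 85 nuclear subunits are accounted for by their UMIs over all cells: 83 had at least 1, 80 had at least 20 and 76 had at least 100. Ndufa1 and Cox8c had 0 UMIs, and Atp5pb had 8, Cox8b 4 and Cox7b2 2. The level summed over both libraries was highest for Cox8a in complex IV (1360 UMIs per 1000000 nuclear UMIs), Atp5mc2 in complex V (1138), Uqcrh in complex III (738), Ndufa13 in complex I (614) and Sdhc in complex II (255). Apart from the genes at or near 0, the lowest in complex II was Sdhd (118) and the lowest in complex III was a Uqcrb locus, ENSRNOG00000032204 (64.5). Cox6b1 and Uqcrb are each listed at 2 loci, between which the counting could divide or lose reads, so their values are uncertain. Of the rest, all 8 assembly factors had at least 100 UMIs and the pseudogene had 0.

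Summed by complex, WT astrocyte-marker cells exceeded WT fibroblast-marker cells in every complex, most in complex II. The nuclear subunits summed to 9590 UMIs per 1000000 nuclear UMIs in astrocyte- and 8414 in fibroblast-marker cells for complex I, 1043 and 602 for complex II, 3874 and 3360 for complex III, 11091 and 9262 for complex IV, and 8943 and 8452 for complex V. In Nuc1 the same sums were 8578 and 8262 for complex I, 1124 and 691 for complex II, 3257 and 3390 for complex III, 8563 and 8959 for complex IV, and 7338 and 8709 for complex V. Only complexes I and II were thus higher in the Nuc1 astrocyte-marker cells on this scale. The mitochondrial subunits of complex IV summed to 74938 and 51292 in WT and to 64771 and 50198 in Nuc1.

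Complex II, the succinate dehydrogenase that also serves the citric acid cycle, has no mitochondrial subunit. Its membrane anchor gene Sdhc had the largest excess in glia among subunits with at least 100 UMIs. Sdhc was at 468 in WT and 449 in Nuc1 astrocyte-marker cells, at 415 and 374 in cilia-marker cells and at 385 in WT oligodendrocyte-marker cells, against 181 and 227 in fibroblast-marker cells and 160 in WT myeloid-marker cells. Astrocyte- over fibroblast-marker cells gave a log2 ratio of 1.37 (1.28 to 1.46) in WT and 0.98 (0.92 to 1.05) in Nuc1. Sdha, the flavoprotein that oxidizes succinate, was at 158 against 100.02 in WT (0.66, 0.50 to 0.81) and at 206 against 127 in Nuc1 (0.70, 0.60 to 0.79). Sdhb, the iron-sulfur subunit, was at 286 against 196 (0.55, 0.43 to 0.66) and at 361 against 225 (0.68, 0.61 to 0.75). Sdhd, the other membrane anchor, had nearly equal levels, 131 against 126 in WT (0.06, −0.11 to 0.23) and 107 against 112 in Nuc1 (−0.06, −0.18 to 0.06). The promoter of Sdhc is shown for its excess in glia, and that of Sdhb because it was among the subunits higher in Nuc1 in all 3 groups compared below. They are RefSeq windows of GRCr8 from 150 bases before to 30 after the annotated start, 5′ to 3′ on the gene's strand, with Sdhc at chr13:86097996-86098175 on the minus strand and Sdhb at chr5:158547784-158547963 on the plus strand. Capitals mark the letters of a YY1 motif (AAGATGGC) 4 bases after the start in Sdhc and of an ETS motif (CCGGAAG) 108 bases before it in Sdhb.
Sdhc: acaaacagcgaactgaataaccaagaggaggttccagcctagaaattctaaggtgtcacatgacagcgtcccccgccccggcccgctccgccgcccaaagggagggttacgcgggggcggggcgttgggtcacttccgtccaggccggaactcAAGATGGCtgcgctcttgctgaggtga
Sdhb: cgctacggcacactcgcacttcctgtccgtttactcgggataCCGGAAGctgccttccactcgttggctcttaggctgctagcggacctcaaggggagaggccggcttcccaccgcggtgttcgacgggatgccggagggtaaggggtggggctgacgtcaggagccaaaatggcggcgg

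Subunit c, which forms the rotor ring of ATP synthase, is encoded by 3 genes whose mature proteins are the same and whose import signals differ. Atp5mc2 was the most abundant in every group, but the shares of the 3 genes differed between groups. Atp5mc3 gave 20.8% of the family's UMIs (19.7% to 22.0%) in WT and 19.99% (19.2% to 20.7%) in Nuc1 astrocyte-marker cells, and 25.8% (22.5% to 29.3%) and 20.9% (19.6% to 22.2%) in cilia-marker cells. It gave 13.8% (13.5% to 14.1%) and 12.4% (12.1% to 12.7%) in fibroblast-marker cells and 11.4% (9.7% to 13.3%) in WT oligodendrocyte-marker cells. Atp5mc2 gave 48.1% and 51.3% in astrocyte-marker cells, 61.1% and 62.5% in fibroblast-marker cells and 63.0% in WT oligodendrocyte-marker cells. Hence the oligodendrocyte-marker cells lay with the fibroblast-marker cells, and the cilia-marker cells with the astrocyte-marker cells. In levels, Atp5mc2 was 903 in astrocyte- and 1155 in fibroblast-marker cells of WT (log2 −0.35, −0.42 to −0.29) and 814 and 1294 in Nuc1 (−0.67, −0.71 to −0.63), whereas Atp5mc3 was 391 and 261 in WT (0.58, 0.48 to 0.68) and 317 and 256 in Nuc1 (0.31, 0.23 to 0.38). The 3 promoters are shown because their genes encode 1 protein and are used in different proportions. They are RefSeq GRCr8 windows as above, all on the minus strand: Atp5mc1 at chr10:81523316-81523495, Atp5mc2 at chr7:135678189-135678368 and Atp5mc3 at chr3:79220635-79220814. Capitals mark an NRF1 motif (CGCATGCG with 1 further base of its palindrome on each side) that begins 56 bases before the start in Atp5mc2 and the reverse complement of an estrogen-related receptor motif (TCAAGGTCA) 57 bases before the start in Atp5mc3, and the Atp5mc1 window held none of the NRF1, ETS, YY1 or estrogen-related receptor letters.
Atp5mc1: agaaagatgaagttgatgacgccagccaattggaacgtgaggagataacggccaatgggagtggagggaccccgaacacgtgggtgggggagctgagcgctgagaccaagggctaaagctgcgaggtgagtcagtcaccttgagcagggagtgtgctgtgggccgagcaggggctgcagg
Atp5mc2: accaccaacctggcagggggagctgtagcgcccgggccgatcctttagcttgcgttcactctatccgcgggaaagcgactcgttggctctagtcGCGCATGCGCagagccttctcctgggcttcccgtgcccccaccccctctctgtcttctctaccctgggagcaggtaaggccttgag
Atp5mc3: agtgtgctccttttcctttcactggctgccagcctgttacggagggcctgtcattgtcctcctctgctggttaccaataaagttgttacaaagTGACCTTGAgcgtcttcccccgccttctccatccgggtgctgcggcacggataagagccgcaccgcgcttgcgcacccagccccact

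**Figure D3:**
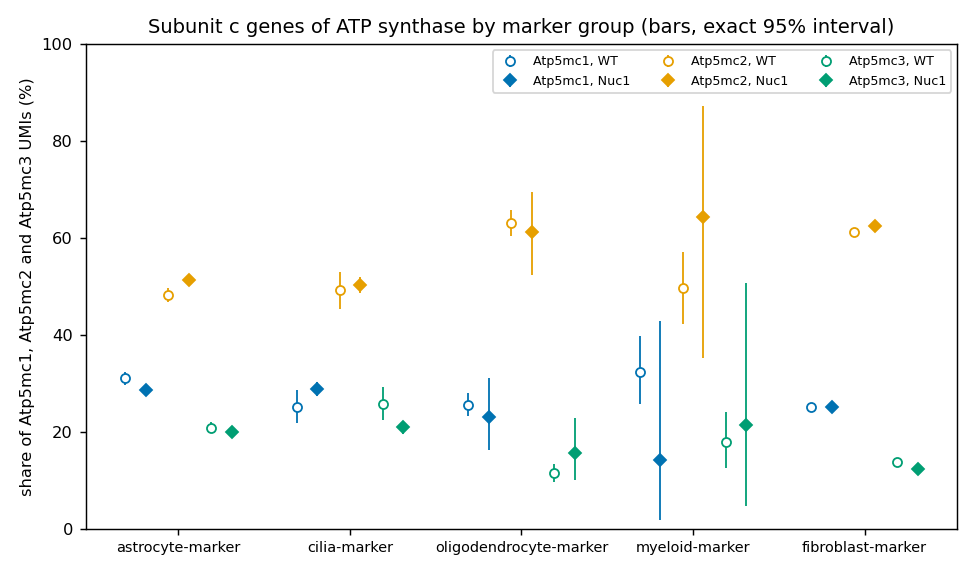
Share of each subunit c gene (y axis, % of the UMIs of Atp5mc1, Atp5mc2 and Atp5mc3 together) by marker group; open circles are WT, filled diamonds Nuc1, and bars exact 95% binomial intervals. Atp5mc3 lies at 20.8% and 19.99% in astrocyte-marker cells and at 13.8% and 12.4% in fibroblast-marker cells, and the wide bars belong to the groups of 4 and 1 Nuc1 cells.

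In the comparison of astrocyte- with fibroblast-marker cells, a gene with at least 20 UMIs over the 2 sums was called when the fold was at least 1.5 and the 95% interval left out a ratio of 1. In WT 61 of 79 nuclear subunits were above 0 on the log2 scale, with a median of 0.23 against −0.09 for all nuclear genes, and 11 were called higher and 1 lower, where 21.4% of all nuclear genes were called higher and 21.4% lower. In Nuc1 37 of 76 were above 0, with a median of −0.03 against −0.30 for all nuclear genes, and 7 were called higher and 3 lower, where 20.1% and 34.6% of all nuclear genes were called. These counts lie below the background shares, while the members' median stood above that of all genes, by 0.27 in Nuc1. Scaling by edgeR's TMM factors, which raised every log2 ratio of the Nuc1 comparison by 0.20, turned its median to 0.17, with 14 called higher and 1 lower. In WT the same scaling lowered every log2 ratio by 0.09, to a median of 0.14 with 6 called higher and 2 lower. After TMM scaling, 23.8% of all nuclear genes were called higher and 27.5% lower in Nuc1, and 19.4% and 24.5% in WT. The subunits called higher were 18.4% in Nuc1 and 7.59% in WT, and thus still lay below the shares of all genes. The 5 members called higher in both libraries, 5 of the 11 in WT and 5 of the 7 in Nuc1, were Sdhc, Sdha, Uqcrc1, Ndufc2 and Ndufs5, of which Sdha, Uqcrc1 and Ndufs5 fell under the fold of 1.5 in WT after TMM scaling. Uqcrc1, a core protein of complex III, was at 256 against 164 in WT (0.64, 0.52 to 0.76) and at 302 against 187 in Nuc1 (0.70, 0.62 to 0.77). Ndufc2, an accessory subunit of the membrane arm of complex I, was at 531 against 325 (0.71, 0.62 to 0.79) and at 505 against 325 (0.63, 0.58 to 0.69). Cox6b2 was the only member called lower in both. Cox7a2l, which takes part in joining complexes III and IV, was at 367 against 541 in WT (−0.56, −0.66 to −0.46) and at 380 against 592 in Nuc1 (−0.64, −0.70 to −0.58). No member was called in opposite directions in the 2 libraries, 36 were above 0 in both and 16 below 0 in both. The shares of all nuclear genes called, or on the same side, in both libraries were not counted. The overlap is therefore not read as particular to the subunits. All cytosolic ribosomal protein genes together took 8.10% of nuclear UMIs in WT and 6.63% in Nuc1 astrocyte-marker cells against 18.76% and 19.12% in fibroblast-marker cells, a difference in the make-up of the denominator that moves with every ratio between these groups and whose part was not tested.

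**Figure D4:**
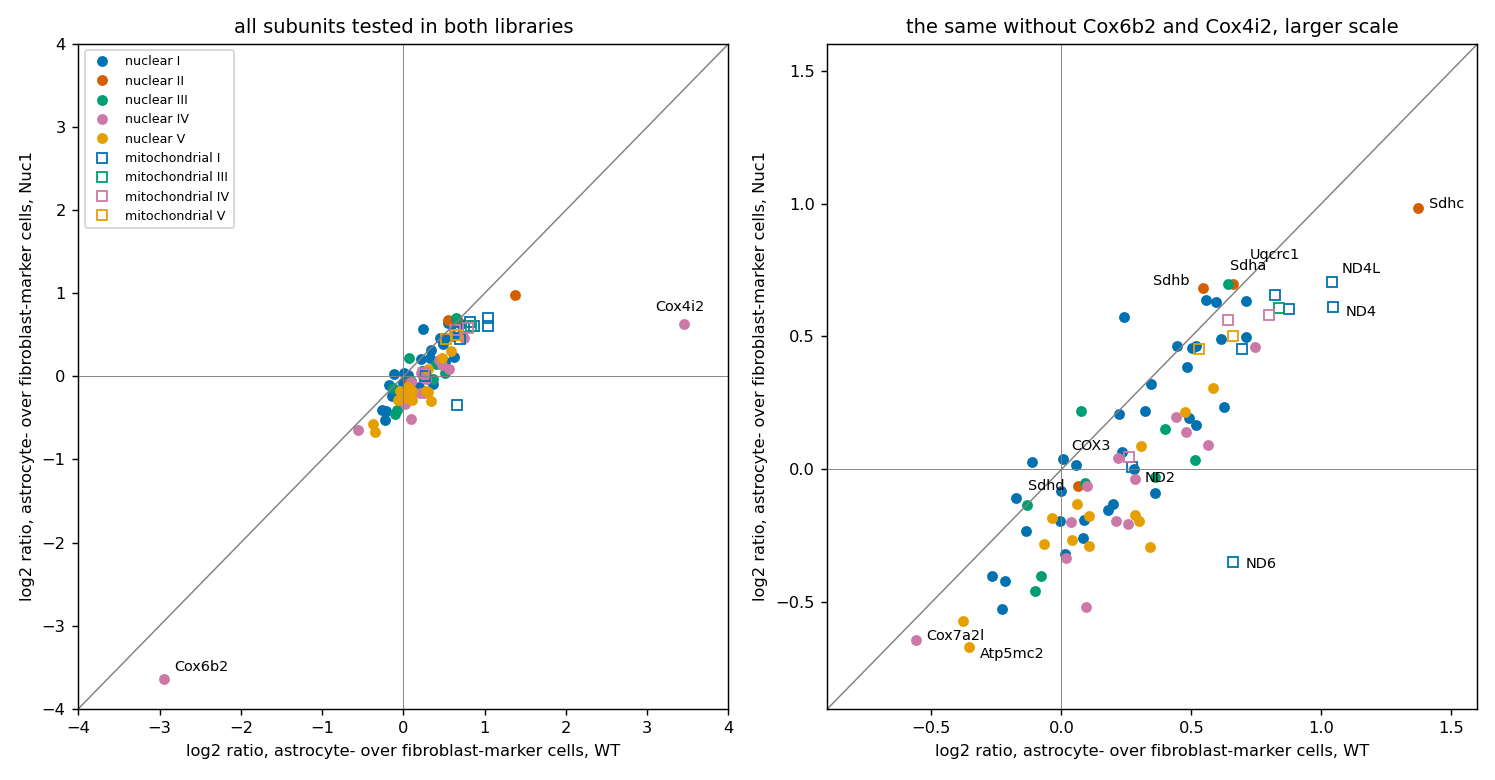
Log2 ratio of astrocyte- over fibroblast-marker cells in WT (x axis) and in Nuc1 (y axis) for each subunit with at least 20 UMIs in both comparisons; filled circles are nuclear and open squares mitochondrial subunits, coloured by complex, and the diagonal is equality. The left panel shows all of them, with Cox4i2 (3.46 and 0.63, on sums of 20 and 19 UMIs in WT and of 14 and 26 in Nuc1) far to the right, and the right panel the same without Cox6b2 and Cox4i2. Sdhc (1.37 and 0.98) lies farthest to the upper right in the right panel, and most points lie below the diagonal.

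Between the genotypes, the nuclear subunits were lower in Nuc1 than in WT astrocyte-marker cells by a median log2 ratio of −0.24, but all nuclear genes were lower there too (median −0.17), and scaling by TMM factors, a shift of 0.25, brought the subunits to 0.0065, so a direction for the set as a whole was not established. Of 77 subunits tested, 62 were below 0 and 46 below the median of all nuclear genes. Of these subunits 8 were called lower and 0 higher, where 15.3% of all nuclear genes were called lower and 4.8% higher. After TMM scaling 4 were called lower and 1 higher, where 8.31% of all nuclear genes were called lower and 9.97% higher. The complexes were spread apart, and this spread does not depend on scaling: the median was 0.14 for complex II, −0.16 for complex I, −0.26 for complex III, −0.32 for complex V and −0.49 for complex IV. Relative to all nuclear genes these are 0.31, 0.01, −0.09, −0.16 and −0.33. The complex IV median takes in the sparse isoforms Cox6b2, Cox6a2 and Cox4i2, at −1.90, −2.57 and −1.97. These had 19, 20 and 20 UMIs in WT and 14, 9 and 14 in Nuc1. Without them the middle complex IV subunit was Cox6a1, at −0.37, near the complex V median. Cox7c, a small subunit of complex IV, was at 901 in WT and 542 in Nuc1 (−0.73, −0.81 to −0.66) and Cox7b, another, at 365 and 222 (−0.72, −0.84 to −0.60). Atp5mg, the g subunit of the ATP synthase membrane part, was at 1105 and 705 (−0.65, −0.72 to −0.58), and Ndufc1, of the membrane arm of complex I, at 87.2 and 44.9 (−0.95, −1.21 to −0.70). Cox7c, Cox7b, Atp5mg and Ndufc1 remained below 0 after the TMM shift, but only Ndufc1 was still called lower. The other 3 subunits called lower after TMM scaling were the sparse isoforms Cox6b2, Cox6a2 and Cox4i2. At the other end, Sdha was at 158 in WT and 206 in Nuc1 (0.38, 0.22 to 0.55), Sdhb at 286 and 361 (0.34, 0.22 to 0.46) and Uqcrc1 at 256 and 302 (0.24, 0.11 to 0.37). The complex II median spans genes on both sides, as Sdhc was at −0.06 (−0.16 to 0.04) and Sdhd at −0.29 (−0.48 to −0.10). The mitochondrial subunits had a median of −0.35, and 12 of 13 were below 0, all but ND2. After TMM scaling their median was −0.11 with 8 of 13 below 0. It was −0.085 over cells with at most 10% mitochondrial UMIs and −0.018 when each cell counted equally.

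**Figure D5:**
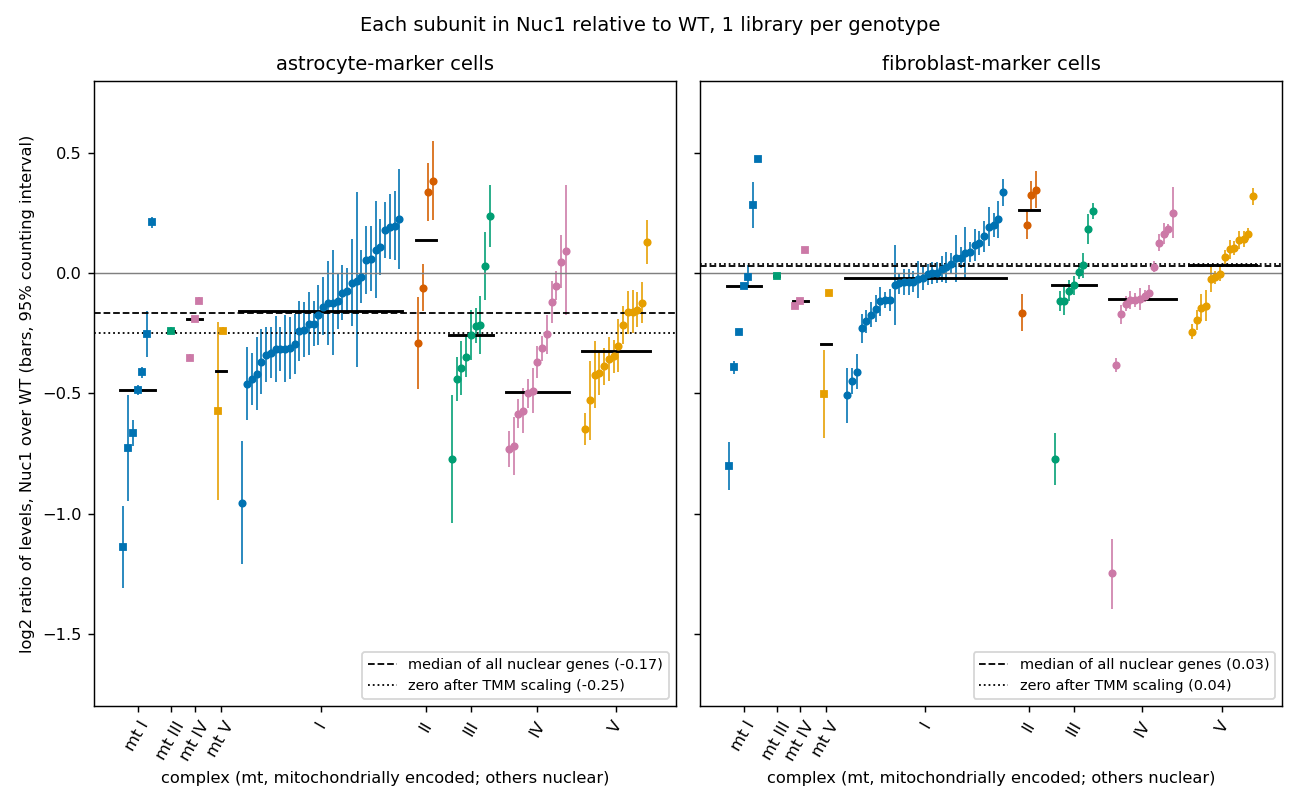
Log2 ratio of Nuc1 over WT for each subunit with at least 100 UMIs over both sums, in astrocyte-marker (left) and fibroblast-marker cells (right). Subunits are ordered within their complex, squares are mitochondrial and circles nuclear subunits, and bars are 95% counting intervals. Black lines are medians, of the points shown for mitochondrial subunits and of all subunits with at least 20 UMIs for nuclear ones. In the left panel Cox6b2, Cox6a2 and Cox4i2 thus enter the complex IV line without being drawn as points. The dashed line is the median of all nuclear genes (−0.17 and 0.03) and the dotted line the zero after TMM scaling. Sdha and Sdhb of complex II lie above 0 in both panels, and complex IV lies lowest among the nuclear complexes in the left panel.

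In complex I, 6 nuclear core subunits (Ndufs1, Ndufs3, Ndufs7, Ndufs8, Ndufv1 and Ndufv2), of the arm that carries electrons from NADH, were set beside the supernumerary subunits around the core, a division made after the values were seen. In astrocyte-marker cells the median log2 ratio of Nuc1 over WT was 0.06 for these core subunits (range −0.21 to 0.20) and −0.23 for 27 supernumerary subunits (range −0.95 to 0.23). In cilia-marker cells it was 0.13 for the core subunits and −0.08 for the supernumerary subunits, and in fibroblast-marker cells 0.14 and −0.02. The median of the core subunits stood above the supernumerary median in each of the 3 groups, whose ranges overlapped in all of them. Ndufv1, which binds NADH, was at 215 in WT and 247 in Nuc1 astrocyte-marker cells (0.20, 0.06 to 0.34), and Ndufs7 at 325 and 368 (0.18, 0.06 to 0.29). Ndufv2, a core subunit next to Ndufv1, was below 0 in both astrocyte- and fibroblast-marker cells (−0.21 and −0.17).

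Some subunits lay on the same side in astrocyte-, cilia- and fibroblast-marker cells, each time with an interval that left out a ratio of 1. Of 75 nuclear subunits tested in all 3 groups, 16 were lower in Nuc1 in all of them and 4 higher, where 4.29% and 2.18% of 8115 nuclear genes were; subunits have more UMIs than most genes, and so narrower intervals. The 4 higher were Uqcrc1, Ndufv1, Sdhb and Atp5f1d, the delta subunit of the ATP synthase stalk. The 16 lower were Ndufa6, Ndufab1, Ndufc1 and Ndufs4 of complex I, Sdhd of complex II, Uqcr10 and Uqcrq of complex III, Cox6a1, Cox6b1 (ENSRNOG00000024309), Cox6c, Cox7a2, Cox7c and Ndufa4 of complex IV, and Atp5f1e, Atp5md and Atp5me of complex V. Cox7c had log2 ratios of −0.73, −0.61 and −0.38 in the 3 groups, Ndufc1 −0.95, −1.09 and −0.51, and Uqcrc1 0.24, 0.61 and 0.18. Sdha missed this count in cilia-marker cells only (0.38, 0.40 with an interval of −0.02 to 0.84, and 0.35). Of the mitochondrial genes, 7 of 13 were lower in all 3 groups (ND1, ND3, ND4, ND4L, COX1, COX2 and CYTB) and ND2 was higher in all 3. In astrocyte-marker cells the TMM shift of 0.25 exceeds the size of the smaller of these ratios, so their side there depends on scaling.

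In fibroblast-marker cells the medians of the nuclear and the mitochondrial subunits lay closer to 0 than in astrocyte-marker cells. This held before TMM scaling but not after it. The nuclear subunits had a median log2 ratio of Nuc1 over WT of −0.02, against 0.03 for all nuclear genes, with 36 of 80 above 0, and 3 were called lower and 0 higher, where 9.46% of all nuclear genes were called lower and 11% higher. Complex II again had the highest median, 0.26, with Sdha at 100.02 in WT and 127 in Nuc1 (0.35, 0.27 to 0.43) and Sdhc at 181 and 227 (0.33, 0.27 to 0.39). Ndufs8, a core iron-sulfur subunit of complex I, was at 201 and 254 (0.34, 0.28 to 0.39), and Atp5f1d at 496 and 620 (0.32, 0.28 to 0.36). The lower end held Ndufc1 at 67.9 and 47.8 (−0.51, −0.62 to −0.39), Ndufb2 at 286 and 210 (−0.45, −0.50 to −0.39) and Ndufb4 at 154 and 116 (−0.41, −0.48 to −0.34). The Uqcrb locus ENSRNOG00000032204 was called lower in both astrocyte- and fibroblast-marker cells (−0.77 in each), a value limited by the 2 loci of that symbol. The mitochondrial subunits had a median of −0.08, with 3 of 13 above 0 (ND2, ND6 and COX3). After TMM scaling the nuclear median was −0.06 in fibroblast- and 0.0065 in astrocyte-marker cells. The mitochondrial median was then −0.12 in fibroblast- and −0.11 in astrocyte-marker cells.

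The tissue isoforms of complex IV gave few UMIs except for Cox6b2, known as the testis form of subunit 6b. Cox6b2 was at 60.1 in WT and 25.3 in Nuc1 fibroblast-marker cells (log2 −1.25, −1.40 to −1.11), at 7.74 and 1.997 in astrocyte-marker cells and at 14.7 and 6.82 in cilia-marker cells. It was therefore lower in astrocyte- than in fibroblast-marker cells by a log2 ratio of −2.95 (−3.69 to −2.31) in WT and −3.64 (−4.54 to −2.90) in Nuc1. Of fibroblast-marker cells, 814 of 1782 in WT (45.7%, 43.3% to 48.0%) and 328 of 1254 in Nuc1 (26.2%, 23.7% to 28.7%) had at least 1 UMI, and of astrocyte-marker cells, 15 of 119 (12.6%, 7.23% to 19.9%) and 12 of 355 (3.38%, 1.76% to 5.83%), although astrocyte-marker cells had the higher median depth in both libraries, 23737 against 13620.5 UMIs in WT and 21058 against 15149 in Nuc1. The Cox6b2 promoter, RefSeq GRCr8 chr1:78122721-78122900 on the plus strand, is shown because this was the only member called lower in astrocyte- than in fibroblast-marker cells in both libraries; its window of 150 bases before to 30 after the start held none of the NRF1, ETS, YY1 or estrogen-related receptor letters.
Cox6b2: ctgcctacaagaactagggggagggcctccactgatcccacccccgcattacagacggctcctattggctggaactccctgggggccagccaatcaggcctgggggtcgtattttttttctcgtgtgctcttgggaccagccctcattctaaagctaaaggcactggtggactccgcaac

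The other isoforms of this kind were sparse. Cox4i2, the oxygen-sensitive form of Cox4, had 20 UMIs in 7 of 119 WT astrocyte-marker cells, with up to 6 in a cell, and 14 UMIs in 12 of 355 Nuc1 cells, while the common form Cox4i1 was at 1261 and 1217. Cox6a2, the muscle form of Cox6a, had 20 UMIs in 10 WT astrocyte-marker cells and 9 UMIs in 8 Nuc1 cells. Both were called lower in Nuc1, on these few molecules (log2 −1.97, −3.13 to −0.97, and −2.57, −3.98 to −1.47). Cox7a1, the muscle form of Cox7a, had 41 UMIs in WT and 3 in Nuc1 fibroblast-marker cells, a log2 ratio of −3.21 (−5.72 to −1.73). Ndufa4l2, a paralog of Ndufa4, was seen in 6 of 43 WT oligodendrocyte-marker cells (13.95%, 5.30% to 27.9%), and in 1 of 119 WT astrocyte-marker cells. Cox8b was detected in 0 of 1782 WT fibroblast-marker cells and in 2 of 1254 Nuc1 cells.

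Cilia-marker cells, which carry the gene program of motile cilia and are close to astrocyte-marker cells in total mitochondrial share, differed from them in single members. The nuclear subunits had a median log2 ratio of cilia- over astrocyte-marker cells of −0.02 in WT and 0.08 in Nuc1, against 0.02 and 0.18 for all nuclear genes. In WT 2 of 77 were called higher and 3 lower (background 17.8% and 11.8%), and in Nuc1 2 of 76 higher and 0 lower (background 25.7% and 11.9%). Ndufs3, a core subunit of complex I, was at 222 in astrocyte- and 379 in cilia-marker cells of WT (0.77, 0.48 to 1.05) and at 231 and 395 in Nuc1 (0.77, 0.65 to 0.89). Ndufaf7, a methyltransferase that modifies a core subunit during complex I assembly, was at 24.0 and 115 in WT (2.24, 1.63 to 2.86) and at 22.5 and 86.8 in Nuc1 (1.94, 1.63 to 2.26). Ndufaf3, another assembly factor, was at 62.3 and 144 (1.2, 0.71 to 1.68) and at 51.7 and 135 (1.38, 1.16 to 1.61). Ndufv1 went the other way, from 215 to 121 in WT (−0.83, −1.33 to −0.38) and from 247 to 176 in Nuc1 (−0.48, −0.65 to −0.32). The WT values rest on 14 cells, and within a library these ratios use the same astrocyte-marker sums as the comparison with fibroblast-marker cells. Between the genotypes, cilia-marker cells had a median of −0.12 for nuclear subunits, with 1 of 75 called higher in Nuc1 (Uqcrc1) and 6 lower (Ndufc1, Sdhd, Ndufab1, Cox7a2, Cox7c and Atp5mg), where 4.88% and 8.23% of all nuclear genes were called.

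Oligodendrocyte-marker cells of WT had the highest share of nuclear subunits among the groups, and with 4 such cells in Nuc1 they were compared with astrocyte-marker cells in WT only. Of these cells 15 of 43 were dividing, against 8 of 119 astrocyte-marker cells, and the cell division list averaged 1605 against 327, a difference whose part in the ratios was not tested. The median log2 ratio over astrocyte-marker cells was 0.06, against 0.15 for all nuclear genes, and 8 of 77 were called higher and 3 lower, where 26.6% and 21.5% of all nuclear genes were. Ndufv2 was at 274 in astrocyte- and 512 in oligodendrocyte-marker cells (0.90, 0.70 to 1.10), Cox7a2, the common form of Cox7a, at 571 and 1030 (0.85, 0.71 to 0.99), and Ndufb10, of the membrane arm of complex I, at 240 and 429 (0.84, 0.62 to 1.06). Sdha was at 158 and 98.9 (−0.67, −1.11 to −0.27). The inhibitor Atp5if1, which stops ATP synthase from running in reverse, was at 1247 in the 12 WT myeloid-marker cells (counting interval 1063 to 1453), against 370 to 588 in the astrocyte-, cilia-, oligodendrocyte- and fibroblast-marker cells of both libraries.

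Dividing fibroblast-marker cells, 148 in WT and 67 in Nuc1, had a lower mitochondrial share than the 1634 and 1187 non-dividing ones, 7.46% against 9.17% in WT and 7.70% against 9.05% in Nuc1. The median log2 ratio of the 13 mitochondrial genes was −0.33 in WT, with 12 below 0, and −0.27 in Nuc1, with 13 below 0. The nuclear subunits did not share this direction, with medians of 0.05 and 0.11 against −0.08 and −0.11 for all nuclear genes. In each library 2 subunits were called higher, Sdhd and Ndufa12, where 10.8% of all nuclear genes were called higher in WT and 11% in Nuc1, and 0 were called lower, where 11.1% and 13.4% were. Sdhd was at 115 in non-dividing and 196 in dividing cells of WT (0.77, 0.65 to 0.89) and at 104 and 188 in Nuc1 (0.84, 0.68 to 1.01). Ndufa12, an accessory subunit of complex I, was at 234 and 380 in WT (0.70, 0.61 to 0.79) and at 231 and 394 in Nuc1 (0.77, 0.65 to 0.88). Ndufab1, which is also the mitochondrial acyl carrier protein, was at 190 and 280 in WT (0.56, 0.46 to 0.66) and at 178 and 266 in Nuc1 (0.58, 0.44 to 0.72).

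The other genes on which the chain depends were read from fixed lists. In astrocyte-marker cells, the median log2 ratio of Nuc1 over WT was −0.17 for 35 assembly factors and mitochondrial expression genes (1 called higher and 2 lower), −0.20 for 17 genes of mitochondrial transcription and its regulators (0 and 2), −0.21 for 13 electron carriers and exchangers (0 and 0), −0.05 for 73 mitochondrial ribosomal proteins (0 and 2) and −0.02 for 16 glycolysis genes (1 and 1), against −0.17 for all nuclear genes. The 70 cytosolic ribosomal proteins, a list added after the values were seen, had −0.32 (0 higher and 13 lower). The background shares in this comparison were the 4.8% called higher and 15.3% lower given above. In fibroblast-marker cells the same medians were 0.01, 0.12, 0.14, 0.06 and 0.08, and −0.00 for cytosolic ribosomal proteins. Among the fixed lists, the glycolysis list stood farthest from 0 between astrocyte- and fibroblast-marker cells. The added list of cytosolic ribosomal proteins, whose shares in these groups are given above, was not ranked here. Astrocyte- over fibroblast-marker cells gave the glycolysis list a median of 1.08 in WT, with 10 of 16 called higher and 1 lower. In Nuc1 its median was 0.66, with 8 and 1. Of all nuclear genes, 21.4% in WT and 20.1% in Nuc1 were called higher, and 21.4% and 34.6% lower. The electron carriers had medians of 0.62 in WT (7 of 13 higher) and 0.29 in Nuc1 (3 of 13 higher), and the mitochondrial ribosome 0.11 and 0.04. In cilia- over astrocyte-marker cells the mitochondrial ribosome had medians of 0.25 and 0.23, with 14 called higher and 0 lower in each library, against background shares of 17.8% and 25.7%.

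The promoters of the nuclear subunits were read for the letters of factors known to act on genes of respiration. RefSeq windows of 300 bases (GRCr8, 250 before to 50 after the start) were matched for 72 of the 85 subunits and compared with all 27457 promoters and with the 9939 whose genes had at least 20 UMIs here, on both strands. The YY1 letters AAGATGGC were in 15 subunit promoters (20.8%), against 3.44% of all and 5.49% of detected genes, and 13 of the 15 matches began between 4 bases before and 37 after the start, as in the Sdhc window printed above. The ETS letters CCGGAAG, the core to which GABP binds, were in 21 (29.2%), against 9.22% and 17.2%; the ETS and YY1 letters share the run AAG and can overlap. The central NRF1 letters CGCATGCG were in 7 (9.72%, against 1.81% and 3.61%), 5 of them in complex V, and estrogen-related receptor letters in 2 (2.78%, against 0.412% and 0.231%), 1 of them Atp5mc3. The CCAAT box was in 24 (33.3%, against 37.7% and 37.8%) and the SP1 letters GGGGCGGGG in 5 (6.94%, against 10.4% and 20.4%). By complex, YY1 letters were in 7 of 32 promoters of complex I, 1 of 4 of complex II, 1 of 6 of complex III, 2 of 16 of complex IV and 4 of 14 of complex V. A match describes letters in a window and not binding. The members without a matched window included both loci of Cox6b1 and of Uqcrb, Ndufa8, Ndufa10l1, Ndufb9, Ndufaf6, Uqcr11, Cox4i2, Cox6a1, Cox6c, Cox6c-ps1 and Atp5pd.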

How the data were processed

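Single-cell RNA sequencing of 1 WT and 1 Nuc1 library was analysed. The authors used a droplet-based 3′ kit (version 3.1), Cell Ranger 3.1.0 and STAR 2.7, and Seurat 3.1.0 and 3.1.1 are named in the submitters' processing notes; they deposited raw counts of UMIs per gene and barcode, without normalization. The genome build and annotation are not given in the sources used here, so genes are named as in the deposited feature lists. Seurat's output was not used.

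Barcodes with at least 500 genes were kept (79 WT and 50 Nuc1 barcodes left out), with no mitochondrial limit, no doublet caller and mixed cells set apart. UMIs were summed per group and library and divided by nuclear UMIs. Before a ratio was taken, 0.5 UMIs were added to both sums in proportion to their nuclear UMIs; ratios have exact conditional 95% intervals; shares have Clopper-Pearson and levels exact Poisson intervals, and all cover counting error only. No p-value was computed. Foxj1, Pecam1, Hba1, Hba2, Hspa1a, Malat1 and Neat1 of the marker lists were not analysed here. Named with values were the mitochondrial genes, the ends of each complex, the 5 highest and 5 lowest ratios per comparison among nuclear members with at least 100 UMIs, and the isoform families; members named beyond these were chosen after their values were seen. The members, lists and groups were chosen with earlier results of these data known.

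The steps were tested on simulated sums. Alternatives were 12 set at the start (200 genes, mitochondrial limits of 10% or 20%, cells over 3 median absolute deviations left out, marker levels of 500 or 2000, at least 100 UMIs, all UMIs as denominator, TMM in edgeR 4.0.16 under R 4.3.3, thinning to 5000 UMIs, mean over cells, dividing cells left out) and 2 added after the values were seen (astrocyte-marker cells with a fibroblast level of 200 or more left out, cells with a dissociation level over 3000 left out). Python 3.11.15 with numpy 2.4.6, scipy 1.17.1 and pandas 2.3.3 was used.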

Additional observations from a re-analysis of the deposited data

Results flagged for a closer look

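For 3 genes and 1 complex, Nuc1 over WT lay on opposite sides of 0 in astrocyte- and fibroblast-marker cells, each with a counting interval that left out 0. The difference between the groups was not tested, because each genotype has 1 library.

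COX3 had a log2 ratio of −0.11 (−0.13 to −0.10) in astrocyte-marker cells and 0.10 (0.09 to 0.10) in fibroblast-marker cells, a difference of −0.21. ND6 had −0.73 (−0.95 to −0.51) and 0.28 (0.19 to 0.38), a difference of −1.01, on 273 WT and 471 Nuc1 UMIs in the astrocyte-marker cells. Uqcr11, a small subunit of complex III, had −0.22 (−0.29 to −0.14) and 0.26 (0.23 to 0.29), a difference of −0.48. The summed nuclear subunits of complex V had −0.29 (−0.31 to −0.26) and 0.04 (0.03 to 0.05), a difference of −0.33. TMM scaling adds 0.25 to the astrocyte values and takes 0.04 from the fibroblast values. COX3 then lies above 0 in astrocyte-marker cells, at 0.13 (0.12 to 0.15). Uqcr11 is at 0.03 there, with an interval that holds 0 (−0.04 to 0.10), and ND6 keeps its opposite signs. Complex V is then at −0.04 (−0.06 to −0.02) in astrocyte-marker cells and at 0.0034 (−0.0056 to 0.012) in fibroblast-marker cells, where the interval holds 0.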

How the results depend on the processing

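No paired analysis was possible because the labels give no replicate numbers and 1 library per genotype. The 8 median log2 ratios of nuclear and mitochondrial subunits were recomputed under 14 alternatives, and 102 of 112 values kept their direction and stayed near the value reported. With at most 10% mitochondrial UMIs, a limit that cuts on the outcome itself, the mitochondrial median of astrocyte- over fibroblast-marker cells in WT turned to −0.032 (ND3 −0.054, ND4L −0.18, ND5 −0.063, COX2 −0.025 and ATP6 −0.064 turned with it) and that of Nuc1 over WT in astrocyte-marker cells was −0.085. Under TMM the nuclear median of Nuc1 over WT in astrocyte-marker cells turned to 0.0065 and the mitochondrial one was −0.11; for astrocyte- over fibroblast-marker cells in Nuc1 TMM gave 0.17 for nuclear and 0.76 for mitochondrial subunits. With the mean over cells, in which cells with a high mitochondrial share weigh more, the mitochondrial medians were −0.018 for Nuc1 over WT in astrocyte-marker cells and 0.93 for astrocyte- over fibroblast-marker cells in Nuc1, and thinning to 5000 UMIs gave 0.67 for the latter. With cells of a dissociation level over 3000 left out, the mitochondrial median of astrocyte- over fibroblast-marker cells in WT was 0.92. The causes of the last 2 shifts were not tested. Over the alternatives, the nuclear median of astrocyte- over fibroblast-marker cells in WT ranged from 0.14 to 0.25, and those of Nuc1 over WT in fibroblast-marker cells from −0.06 to −0.01 (nuclear) and −0.14 to −0.01 (mitochondrial). Of the values for single subunits, 971 kept their call or, where no call was made, lay inside the interval reported. Another 259 had no call and lay outside that interval, 53 lost their call and 5 called values turned. Depth limits the 14 WT cilia-, 12 WT myeloid- and 4 Nuc1 oligodendrocyte-marker cells most.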
